A study of Mus musculus with 12 samples.

Results

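The genes followed here are 38 genes of the unfolded protein response and the integrated stress response. They were picked by symbol from the deposited FPKM table, in which each of the 38 has 1 row among 32246 genes. The picks fall into 14 chaperones and folding enzymes of the endoplasmic reticulum (ER), 4 genes of ER-associated degradation, 8 stress sensors and transcription factors, 4 feedback targets of the factors ATF4 and CHOP, and 8 genes of amino acid synthesis and transport. All 38 reached an FPKM of 1 in 4 or more of the 12 libraries and so entered the test, as did 11165 genes in all. FPKM scales the fragments of a gene by its length and by the reads counted in the library, so levels of different genes can be compared per length.

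The libraries came from total RNA of mouse macrophages, grown out of bone marrow over 7 days in GM-CSF at 50 ng/mL. After that, 4 samples were left untreated, 4 received plasminogen (PLG) that had met EACA, a lysine analogue to which plasminogen binds, and 4 received plasminogen that had met EACA together with RNases. The exposure of the cells lasted 24 h. Strain, sex and age of the mice are not stated in the labels, which also do not say whether the 4 samples of a group are separate cultures or animals, so p-values measure only the spread between these samples. Both treatments combine plasminogen and EACA, and cells given either agent alone were not analysed here, so the parts of plasminogen and of EACA in a difference from the untreated samples cannot be told apart. No group here received RNases without plasminogen. Effects of the RNases on the preparation and on the cells therefore cannot be told apart either.

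Unfolded proteins in the ER lumen release the chaperone BiP from sensors in the ER membrane. ATF6 is cut to a transcription factor, IRE1 (gene Ern1) splices the Xbp1 mRNA, and the products of both drive genes for ER chaperones and degradation. The sensor PERK phosphorylates the translation factor eIF2alpha, a step shared with the kinases of amino acid shortage, haem shortage and foreign RNA, and this integrated stress response favours translation of ATF4, which drives genes for amino acid supply and, through CHOP (gene Ddit3), feedback on translation. Splicing of Xbp1, cleavage of ATF6 and translation of ATF4 are not seen in gene-level FPKM, which sums the RNA of a gene. In macrophages these pathways accompany the secretion of cytokines.

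Recovered depth ran from 12.9 to 22.7 (in units of 1000000 counted reads) per library, and the lowest read number behind a value of the 38 genes was 211, for Chac1 in untreated replicate 2. All 8 macrophage markers looked at, among them Csf1r, Cd68 and Lyz2, had a mean FPKM of at least 1 in every group, and they moved with treatment. Their sum was 5190 to 5790 in untreated cells, 3955 to 5790 after PLG+EACA and 3952 to 4470 after PLG+EACA+RNase, with 2 of the 8 higher and 4 lower, and 1 higher and 4 lower, against untreated cells (2 and 3, and 1 and 1, under the scaling described below). Csf1r went from 324 to 186 and 186 with no overlap, and Mertk from 5.97 to 13.8 and 9.2. Dendritic cell markers were also present, with a summed FPKM of 69.3 to 104.9 in untreated cells, 78.6 to 146.4 after PLG+EACA and 115.6 to 145.3 after PLG+EACA+RNase, most of it Ccr7. Of the 4 tested, 1 was higher and 1 lower after PLG+EACA, and 2 and 1 after PLG+EACA+RNase (2 and 1 in each under that scaling). Clec9a was lower in both treatments (4.97 to 2.2 and 2.9). All treated values of Zbtb46 lay above the untreated ones (3.30 to 3.58, 3.88 to 5.38 and 5.40 to 5.75). The mast cell marker Mcpt8 stood at 3.80 in PLG+EACA+RNase replicate 2 and at 0.442 or less in the other libraries, and summed stromal and endothelial markers varied within every group (7.00 to 16.6, 2.17 to 17.04 and 2.55 to 11.48). Summed neutrophil markers overlapped between the groups (14.1 to 58.1, 26.1 to 70.3 and 24.7 to 60.3), with Ly6g at 0 and S100a9 at 4.12 to 23.8 in untreated libraries. Of the 5 tested, none passed after PLG+EACA, and 1 was higher after PLG+EACA+RNase, with and without that scaling. Mpo, too low to be tested, stood at 0 to 0.02, 0.033 to 0.314 and 0.555 to 1.128. Of all genes tested, 14.9% and 16.0% were higher and 53.4% and 48.4% lower in the treatments as deposited. Under the same scaling 27.3% and 28.4% were higher and 26.4% lower in each. Of the 7 B and plasma cell markers only Prdm1, which macrophages also express, had a mean of at least 1, and the secretory genes Jchain and Igkc were at or near 0. The sum of 9 mitochondrial mRNAs was 4273 to 4927 in untreated cells, 3305 to 4421 after PLG+EACA and 2679 to 3273 after PLG+EACA+RNase, and the noncoding RNA Gm26917 took 10.3% to 11.9%, 10.98% to 14.3% and 13.3% to 15.2% of reads. Their part in the results was not tested.

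A shift of the scale bears on every comparison with untreated cells. The median log2 fold change of all genes tested was -0.26 after PLG+EACA and -0.20 after PLG+EACA+RNase, against 0.039 between the treatments. Values are given as deposited, and the result under median-of-ratios scaling (one factor per library that centres the median gene), which moves those medians to -0.011 and 0.0066, stands beside the calls it changes. Fold changes are on the scale of FPKM + 0.5. In these bulk samples, fewer cells of a type and less RNA per cell cannot be told apart.

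The fourth library of each treatment stood apart for these genes. PLG+EACA replicate 4 was the lowest of its group for 26 of the 38 genes, against 47.5% of all genes tested, and PLG+EACA+RNase replicate 4 was the lowest of its group for 23 of the 38, against 36.4%. Among untreated libraries the most often lowest was replicate 2, for 15 genes. Leaving out replicate 4 of both treatments, a check chosen after seeing the data, gave 5 higher and 20 lower of the 38 genes after PLG+EACA, 9 and 21 after PLG+EACA+RNase, and 14 and 7 between the treatments, where the full set gave the counts below. The shares of all genes that passed in this fit are not given here, so its counts do not single out the 38 genes.

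**Figure D1:**
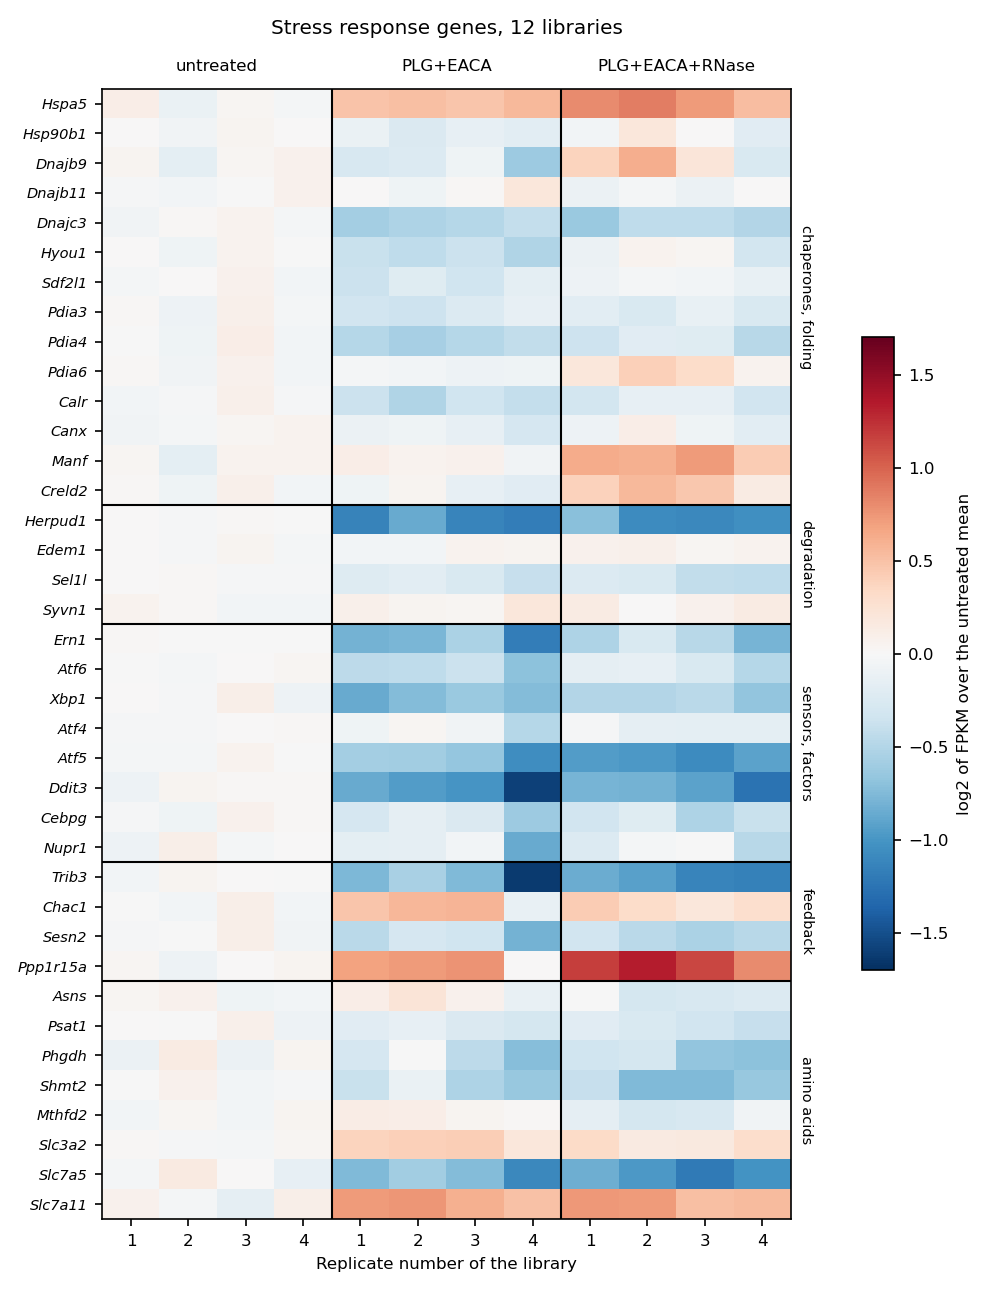
Heat map of the 38 genes (rows, grouped by role) in the 12 libraries (columns, by replicate number within a group). Colour gives the log2 of FPKM over the mean of the 4 untreated libraries. Hspa5, Ppp1r15a, Slc3a2 and Slc7a11 are red and Herpud1, Ddit3, Trib3, Atf5 and Slc7a5 blue in both treatments, and Manf, Creld2 and Pdia6 are red in the PLG+EACA+RNase libraries.

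Of the 38 genes, 5 rose and 21 fell after PLG+EACA relative to untreated cells (limma, Benjamini-Hochberg adjusted p under 0.05 over all genes tested), where 14.9% of all genes tested were higher and 53.4% lower. Under median-of-ratios scaling 13 rose and 10 fell, against 27.3% and 26.4% of all genes. After PLG+EACA+RNase, 7 were higher and 20 lower, against 16.0% and 48.4%, or 14 and 10 with that scaling, against 28.4% and 26.4%. The share of lower genes was near that of all genes in both comparisons, as was the median log2 fold change of the 38, at -0.26 and -0.20. The spread among the 38 was wide, from -1.08 for Ddit3 to 0.64 for Slc7a11 after PLG+EACA and from -0.996 for Trib3 to 1.10 for Ppp1r15a after PLG+EACA+RNase. Groups did not overlap, with all 4 treated values above or below all 4 untreated ones, for 3 higher and 21 lower genes after PLG+EACA (13.8% and 50.9% of all genes) and for 7 and 20 after PLG+EACA+RNase (15.0% and 46.7%).

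Between the treatments, which differ by the RNases, 9 of the 38 were higher with RNase and 2 lower, against 12.1% and 8.73% of all genes tested. The 9 were Hspa5, Dnajb9, Hyou1, Sdf2l1, Pdia6, Manf, Creld2, Xbp1 and Ppp1r15a, and the 2 were Asns and Mthfd2. Median-of-ratios scaling left 6 higher and made 3 lower, against 10.6% and 11.4%. The groups did not overlap for 7 higher genes and 1 lower gene, against 10.4% and 7.68% of all genes. The number called moved with single libraries. It was 5 higher and 1 lower without PLG+EACA replicate 1, 6 and 1 without replicate 2, 9 and 1 without replicate 3, and 6 and 6 without replicate 4. Without PLG+EACA+RNase replicates 1, 2, 3 and 4 it was 6 and 2, 4 and 1, 4 and 1, and 14 and 2. Shares of all genes in these fits are not given here, so their counts do not single out the 38 genes. The calls of Hyou1, Pdia6, Manf, Creld2 and Mthfd2 held in each of these fits and under every other alternative run.

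**Figure D2:**
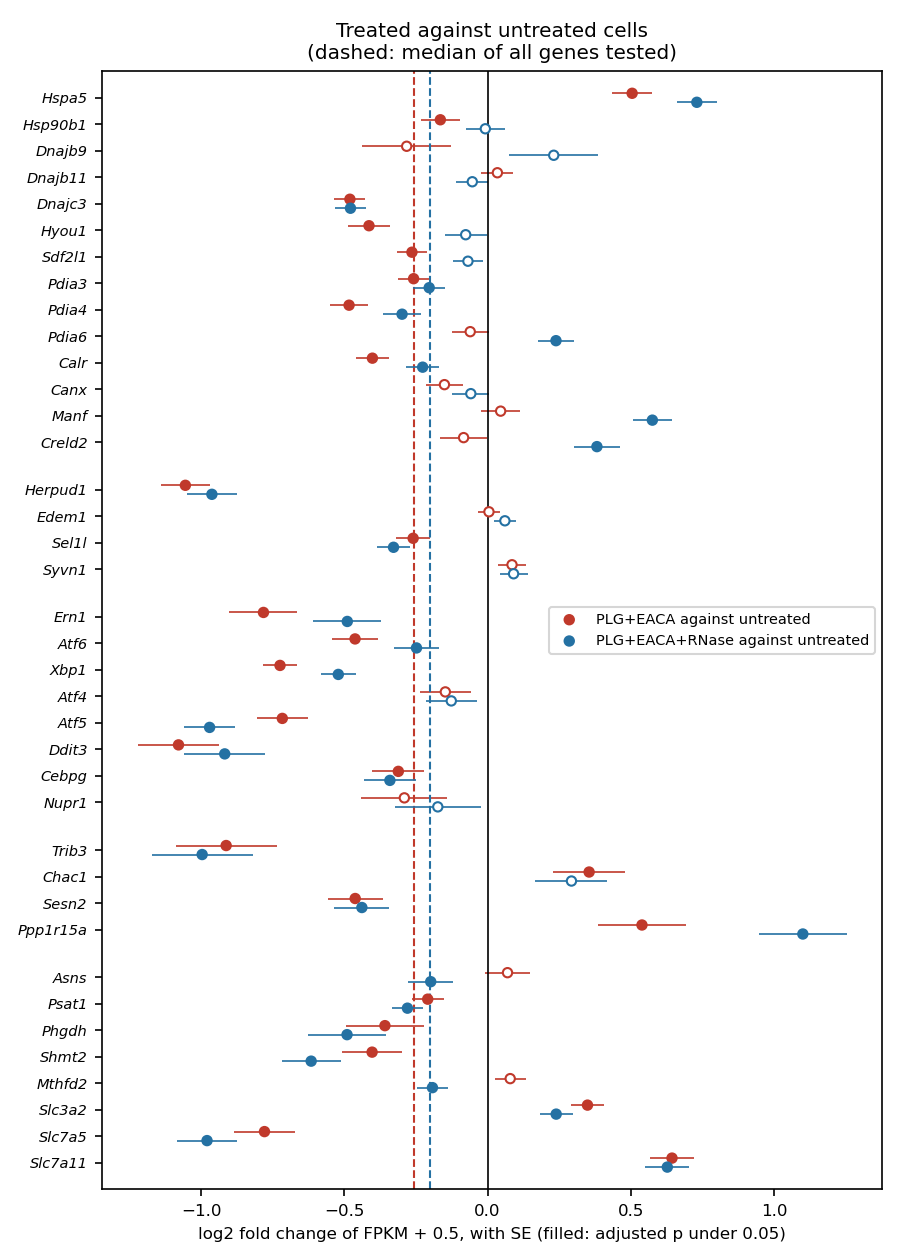
Log2 fold change of FPKM + 0.5 (x axis, with its SE) of the 38 genes (y axis, by role) for PLG+EACA (red) and PLG+EACA+RNase (blue) against the same 4 untreated libraries. Filled points passed the test, and dashed lines mark the median of all genes tested (-0.26 and -0.20). Points between a dashed line and 0 are lower as deposited but above the median gene, such as Hsp90b1 after PLG+EACA and Asns after PLG+EACA+RNase, whose direction turns under median-of-ratios scaling.

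The chaperones and folding enzymes split in their response. Hspa5, which encodes BiP, the HSP70 of the ER, rose in both treatments, while Dnajc3 was lower in both. Manf, Creld2 and Pdia6 rose as deposited after PLG+EACA+RNase, and their difference between the treatments passed the test itself, while under median-of-ratios scaling they were also higher after PLG+EACA (limma adjusted p = 7.81e-04, 0.0456 and 0.01). As deposited, 1 of the 14 was higher and 7 lower after PLG+EACA, and 4 were higher and 4 lower after PLG+EACA+RNase. Under median-of-ratios scaling these counts became 5 and 2, and 8 and 1. All genes tested gave 14.9% higher and 53.4% lower, and 16.0% and 48.4%, as deposited. With median-of-ratios scaling they gave 27.3% and 26.4%, and 28.4% and 26.4%. Between the treatments 7 of the 14 were higher with RNase and none lower, or 5 and none with that scaling, against 12.1% and 8.73%, or 10.6% and 11.4%, of all genes tested. Of the 7, the calls of Hspa5, Dnajb9 and Sdf2l1 were lost on leaving out single libraries.

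Some promoters of the chaperones hold a known site of this pathway, the ER stress element (ERSE), to which the factor NF-Y and ATF6 or XBP1 bind. The motif searched was CCAAT followed, after 9 bases of any kind, by CCACG, on both strands of the 250 bases before each start in the RefSeq promoter table for GRCm38.p6, which has a window for 34 of the 38 genes. Manf, Hyou1, Slc7a5 and Atf6 have no window there and were not searched. The motif was found for 8 of the 34 genes with a window, of which 7 were among the 12 chaperones and folding enzymes with a window. Of these 12, Dnajb9, Dnajb11, Sdf2l1, Pdia3 and Pdia4 had no match. In the whole promoter table the motif was found for 0.13% of genes and in 0.113% of all 32851 windows. The matches are shown in the direction of the motif, with its fixed letters in capitals, to set genes that moved differently side by side.
Hspa5: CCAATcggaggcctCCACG
Hsp90b1, far site: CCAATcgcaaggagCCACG
Hsp90b1, near site: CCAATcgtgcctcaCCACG
Calr: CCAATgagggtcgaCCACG
Canx: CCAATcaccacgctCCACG
Pdia6: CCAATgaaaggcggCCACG
Dnajc3: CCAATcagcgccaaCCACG
Creld2: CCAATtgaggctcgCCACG
Syvn1: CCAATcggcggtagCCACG
The Hspa5 site ended 47 bases before the start, and the Hsp90b1 sites lay 86 bases apart. As deposited, the genes with a match include Hspa5, which rose, Dnajc3, which fell, and Canx, which did not pass over the 12 libraries. Under median-of-ratios scaling Hspa5, Pdia6, Creld2 and Syvn1 were higher in both treatments against untreated cells. Hsp90b1 and Canx were then higher after PLG+EACA+RNase, Dnajc3 was lower in both treatments and Calr did not pass. The genes with a match thus did not all share a direction. A match is a description of the letters and not a measured binding site. The window of Hspa5 at chr2:34771840-34772089 on the plus strand is given with the fixed letters of the motif in capitals.
Hspa5: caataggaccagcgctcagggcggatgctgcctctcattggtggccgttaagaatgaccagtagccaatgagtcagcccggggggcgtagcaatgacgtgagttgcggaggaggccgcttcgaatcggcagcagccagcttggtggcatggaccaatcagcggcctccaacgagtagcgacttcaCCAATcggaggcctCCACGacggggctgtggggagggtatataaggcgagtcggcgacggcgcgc

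In untreated replicates 1 to 4, Hspa5 stood at 94.7, 81.02, 90.03 and 85.6 FPKM. It stood at 123, 125, 121 and 129 after PLG+EACA and at 154, 160.1, 145 and 127 after PLG+EACA+RNase. All 8 treated values lay above the untreated ones, and RNase replicate 4 lay within the PLG+EACA values. The rise was 1.42-fold after PLG+EACA (limma log2 fold change 0.51, SE 0.07, adjusted p = 5.19e-05) and 1.66-fold after PLG+EACA+RNase (log2 fold change 0.73, SE 0.07, adjusted p = 3.64e-06), with 90.9% and 93.2% of genes tested at or below these changes. Between the treatments Hspa5 was 1.17-fold higher with RNase (limma adjusted p = 0.0395), a call that ended under median-of-ratios scaling (adjusted p = 0.0805) and on leaving out any of these 8 libraries other than PLG+EACA+RNase replicate 4 (adjusted p = 0.0594 to 0.114).

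Manf, a secreted protein of the ER that protects cells under stress, was at 9.78, 8.54, 9.997 and 10 in the untreated libraries, 10.3, 9.96, 10.1 and 9.2 after PLG+EACA and 14.9, 14.5, 15.8 and 12.9 after PLG+EACA+RNase. Every RNase library was above every other library. It was 1.49-fold above untreated cells (limma adjusted p = 1.93e-05) and 1.44-fold above PLG+EACA (log2 fold change 0.53, SE 0.069, adjusted p = 0.0024), and its change after PLG+EACA was 0.046 on the log2 scale (adjusted p = 0.573), or 0.31 under median-of-ratios scaling. Exons of Manf overlap those of Dcaf1 on the other strand by 146 bases.

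Creld2, an ER resident with disulphide isomerase activity, went along with it. Untreated libraries were at 27.99, 26.2, 29.3 and 26.7, PLG+EACA libraries at 26.2, 28.4, 25.1 and 24.2 and PLG+EACA+RNase libraries at 36.1, 40.4, 37.96 and 30.4. The RNase values did not overlap with the others, with replicate 4 the lowest of them. Creld2 was 1.3-fold above untreated cells (limma adjusted p = 0.00135) and 1.38-fold above PLG+EACA (adjusted p = 0.00611). The disulphide isomerase gene Pdia6 was at 37.8, 35.8, 39.3 and 36.2 in untreated cells, 36.4, 36.1, 35.01 and 35.4 after PLG+EACA and 42.8, 49.1, 46.1 and 38.9 after PLG+EACA+RNase. Its RNase values lay above all PLG+EACA values but replicate 4 lay within the untreated range. It was 1.18-fold above untreated cells (limma adjusted p = 0.00582) and 1.23-fold above PLG+EACA (adjusted p = 0.0111).

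Hyou1, a large HSP70 relative that loads nucleotide onto BiP, fell as deposited after PLG+EACA and passed no test against untreated cells after PLG+EACA+RNase. Its values were 36.6, 34.6, 38.04 and 36.3 in untreated cells, 28.04, 27.1, 28.2 and 25.5 after PLG+EACA and 33.9, 37.9, 37.3 and 29.4 after PLG+EACA+RNase. The PLG+EACA libraries lay below all others. Hyou1 was 1.33-fold lower after PLG+EACA (limma adjusted p = 3.23e-04, or 0.0801 under median-of-ratios scaling) and 1.26-fold higher with RNase than without (adjusted p = 0.0114). Sdf2l1, a partner of BiP's co-chaperones, had values of 57.1, 58.99, 61.8 and 56.6, 45.7, 50.98, 46.2 and 52.3 and 55.5, 57.4, 56.9 and 53.7 in the same order of groups. It was 1.2-fold lower after PLG+EACA as deposited (limma adjusted p = 7.47e-04), a direction that turned under median-of-ratios scaling, and 1.15-fold higher with RNase than without (adjusted p = 0.0238, or 0.109 with that scaling). The latter call was lost without PLG+EACA replicate 1 or 3 or PLG+EACA+RNase replicate 2 or 3 (adjusted p up to 0.0691). Against untreated cells Sdf2l1 did not pass as deposited after PLG+EACA+RNase (limma adjusted p = 0.269) and was higher under median-of-ratios scaling (0.16 on the log2 scale, adjusted p = 0.0481).

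Dnajb9, a co-chaperone that restrains IRE1, depended on single libraries. It was at 11.9, 10.2, 11.8 and 12.1 in untreated cells, 9.49, 9.77, 10.96 and 7.5 after PLG+EACA and 14.9, 17.6, 13.3 and 9.63 after PLG+EACA+RNase. The fourth library was the lowest of both treatments, and the groups overlapped. Dnajb9 was 1.43-fold higher with RNase than without (limma adjusted p = 0.0378), which missed the threshold without PLG+EACA replicate 1, 2 or 4 or PLG+EACA+RNase replicate 1, 2 or 3 (adjusted p = 0.0567 to 0.107). Against untreated cells it did not pass as deposited after PLG+EACA+RNase (log2 fold change 0.23, adjusted p = 0.213), while it was higher under median-of-ratios scaling (0.46, adjusted p = 0.018) and without PLG+EACA+RNase replicate 4 (log2 fold change 0.39, adjusted p = 0.0162). After PLG+EACA it was lower with only those groups in the fit (-0.28, adjusted p = 0.0384, against 0.127 over the 12 libraries).

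The remaining chaperones were lower or did not pass. Dnajc3, an inhibitor of eIF2alpha kinases that also serves as a co-chaperone of BiP, was at 16.8, 17.6, 18.2 and 17.1 in untreated cells, 11.71, 12.1, 12.4 and 13.1 after PLG+EACA and 11.3, 12.9, 12.9 and 12.4 after PLG+EACA+RNase. No treated value reached an untreated one. It was 1.4-fold and 1.39-fold lower (limma adjusted p = 1.07e-05 and 1.20e-05), also under median-of-ratios scaling. Calr, the lectin chaperone calreticulin and the most abundant of the 38 genes in untreated cells, had a mean of 318 ± 12.8 there (SD, n = 4), 241 ± 13.01 after PLG+EACA and 272 ± 19.7 after PLG+EACA+RNase, and was 1.32-fold and 1.17-fold lower, calls that ended with that scaling, where the second turned direction. All PLG+EACA+RNase values of Calr lay above all PLG+EACA values, a difference that missed the threshold (adjusted p = 0.0519) and passed without PLG+EACA replicate 3 or PLG+EACA+RNase replicate 1 or 4 (0.048, 0.0488 and 0.0268). The disulphide isomerase gene Pdia4 went from 85.3 ± 4.88 to 60.9 ± 2.46 and 69.4 ± 6.3, 1.4-fold and 1.23-fold lower, of which the first passed under median-of-ratios scaling (limma adjusted p = 0.0204) and the second did not (0.428). Pdia3, the isomerase that works with calreticulin, went from 94.99 ± 4.95 to 79.4 ± 5.3 and 82.4 ± 3.55, lower in both as deposited, with the direction turned in both by that scaling. Hsp90b1, the HSP90 of the ER, was 73.6 ± 2.47, 65.6 ± 2.54 and 73.5 ± 8.11, lower after PLG+EACA as deposited (adjusted p = 0.0476), a direction that turned with the scaling and a call that ended without any of these 8 libraries other than untreated replicate 2 (adjusted p up to 0.116). After PLG+EACA+RNase Hsp90b1 did not pass as deposited (limma adjusted p = 0.929) and was higher under median-of-ratios scaling (0.22 on the log2 scale, adjusted p = 0.0111). Canx, the membrane partner of calreticulin (113 to 122, 96.6 to 112 and 104 to 127), and the co-chaperone gene Dnajb11 (25.1 to 27.1, 24.5 to 29.6 and 24.1 to 26.04) did not pass over the 12 libraries as deposited, while under median-of-ratios scaling Canx was higher after PLG+EACA+RNase and Dnajb11 after PLG+EACA. All PLG+EACA values of Canx were below the untreated ones (limma adjusted p = 0.0563), which passed without PLG+EACA replicate 2 (0.0449) and with only those groups in the fit (0.0315).

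**Figure D3:**
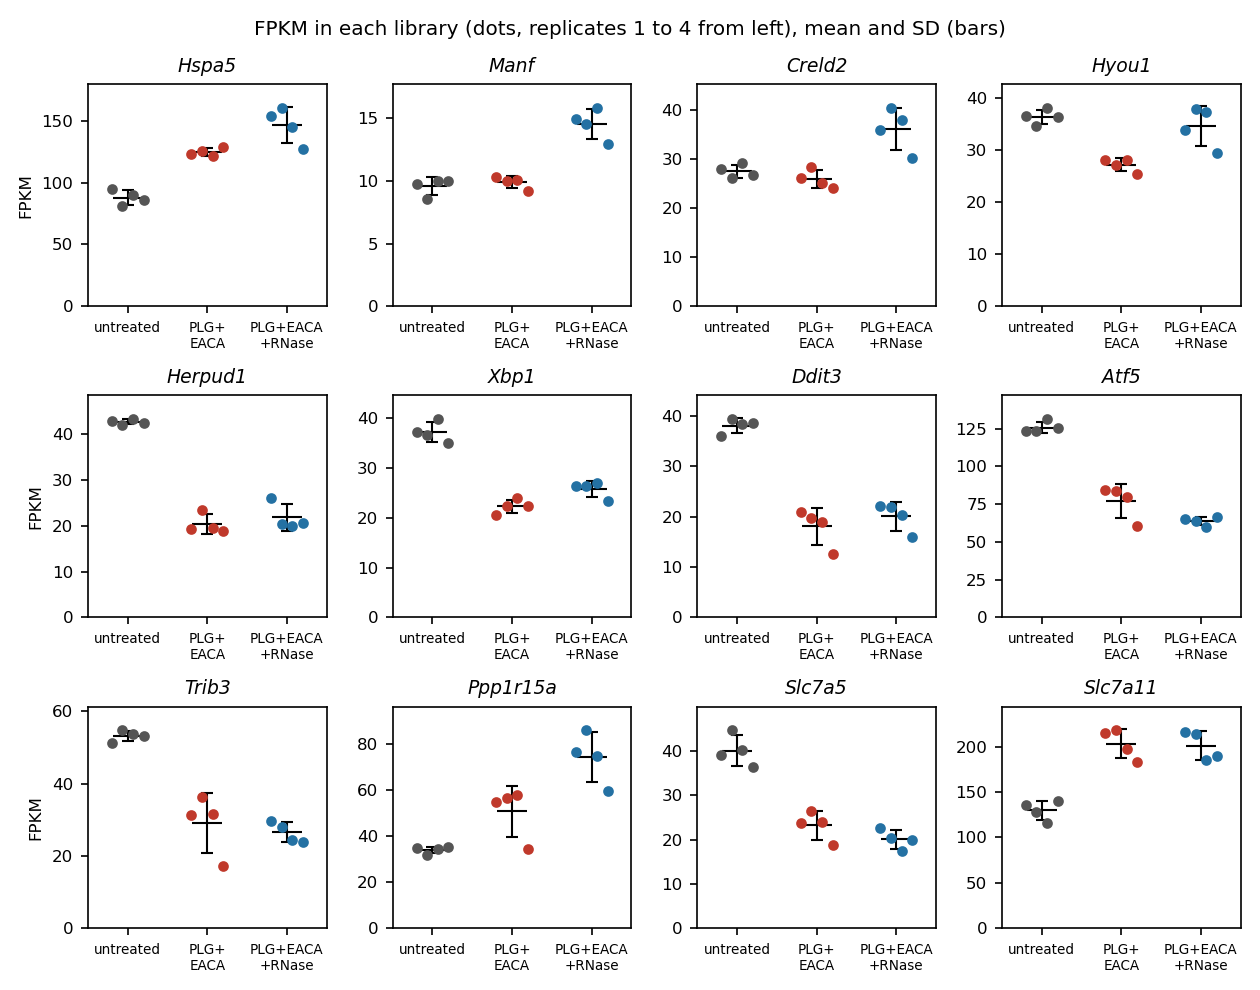
FPKM (y axis, linear from 0) of 12 of the 38 genes in each of the 12 libraries, with group means and SDs (n = 4). Manf, Creld2 and Ppp1r15a are highest in the PLG+EACA+RNase libraries, Hyou1 is lowest after PLG+EACA, and Herpud1, Ddit3 and Xbp1 are lower in all 8 treated libraries than in any untreated one. The rightmost red point, PLG+EACA replicate 4, lies low in Trib3, Ddit3 and Ppp1r15a.

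Among the genes of ER-associated degradation, which carries misfolded proteins back to the proteasome, Herpud1 fell in both treatments. As deposited, none of the 4 was higher and 2 were lower in either treatment, with 2 higher and 1 lower after median-of-ratios scaling in each, and none passed between the treatments. Of all genes tested, 14.9% and 16.0% were higher and 53.4% and 48.4% lower after PLG+EACA and PLG+EACA+RNase. With that scaling 27.3% and 28.4% were higher and 26.4% lower in each. Herpud1, an ER membrane protein that assembles the degradation complex, was at 43.01, 42.1, 43.3 and 42.5 FPKM in untreated cells, 19.4, 23.6, 19.6 and 18.96 after PLG+EACA and 26.2, 20.4, 20.01 and 20.7 after PLG+EACA+RNase. Every treated library was far below the untreated ones, which spanned only 42.1 to 43.3. The fall was 2.08-fold after PLG+EACA (limma log2 fold change -1.05, SE 0.086, adjusted p = 1.10e-06) and 1.95-fold after PLG+EACA+RNase (adjusted p = 2.44e-06), and 2.6% of genes tested were at or below its change in each comparison. Herpud1 and Hspa5, both textbook targets of the unfolded protein response, lay on opposite sides of the untreated values in all 8 treated libraries.

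The Herpud1 promoter is shown because it holds motifs of both arms. The motifs are the second ER stress element, ATTGG and CCACG with 1 base between them (0.037% of genes in the promoter table), and the core of the C/EBP-ATF response element (CARE) that ATF4 binds, TGATGNAA (3.91% of genes). They lie 52 bases apart and do not overlap. The window is chr8:94386179-94386428 on the plus strand, with fixed motif letters in capitals, the CARE core read on the other strand.
Herpud1: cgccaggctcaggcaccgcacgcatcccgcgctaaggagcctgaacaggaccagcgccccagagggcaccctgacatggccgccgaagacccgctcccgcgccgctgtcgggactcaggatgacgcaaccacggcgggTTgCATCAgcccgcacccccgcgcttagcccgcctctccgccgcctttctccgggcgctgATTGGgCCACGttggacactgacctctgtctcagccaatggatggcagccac
One more motif, the core TGACGTGG of the XBP1 element, was in no window of the 34 genes and in 0.603% of genes in the table.

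Sel1l, the scaffold of the main ER ubiquitin ligase, was at 39.00, 39.2, 38.2 and 38.3 in untreated cells, 33.3, 34.1, 32.3 and 29.4 after PLG+EACA and 33.02, 32.5, 28.9 and 28.7 after PLG+EACA+RNase. Treated values lay below untreated ones, but the change was close to that of the median gene. It was 1.2-fold and 1.25-fold lower as deposited (limma adjusted p = 0.00184 and 3.87e-04), and under median-of-ratios scaling the first turned direction (0.015 on the log2 scale) and the second missed the threshold. Syvn1, the ligase itself, had values of 15.1, 14.6, 13.9 and 13.96, 15.2, 14.8, 14.8 and 16.4 and 15.9, 14.5, 15.2 and 15.9, which overlapped. Edem1, a lectin that selects glycoproteins for degradation, ranged over 43.7 to 45.8, 42.9 to 46.4 and 45.4 to 47.05. Neither passed as deposited, and both were higher in each treatment under median-of-ratios scaling.

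Of the 8 sensors and transcription factors, none was higher and 6 were lower in each treatment, and under median-of-ratios scaling none was higher and 5 and 4 were lower. Among all genes tested 14.9% and 16.0% were higher and 53.4% and 48.4% lower, or 27.3% and 28.4%, and 26.4% in each, with that scaling. The sensors and factors were the group with the lowest median log2 fold change as deposited, at -0.59 after PLG+EACA and -0.42 after PLG+EACA+RNase. Ddit3, which encodes CHOP, was at 35.99, 39.3, 38.5 and 38.5 FPKM in untreated cells, 20.98, 19.7, 18.96 and 12.6 after PLG+EACA and 22.1, 21.9, 20.3 and 15.9 after PLG+EACA+RNase. All treated values were below the untreated ones, and the fourth library was lowest in both treatments. Ddit3 was 2.11-fold lower after PLG+EACA (limma log2 fold change -1.08, SE 0.14, adjusted p = 3.68e-05) and 1.89-fold lower after PLG+EACA+RNase (adjusted p = 1.38e-04), and 68 bases of its exons overlap the Mars gene on the other strand. Without PLG+EACA replicate 4 the first change was -0.92.

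Xbp1 itself fell in both treatments. Its values were 37.2, 36.7, 39.8 and 35.1 in untreated cells, 20.6, 22.4, 23.9 and 22.4 after PLG+EACA and 26.4, 26.4, 27.00 and 23.3 after PLG+EACA+RNase. The treated values lay well below the untreated ones and those with RNase were mostly above those without. It was 1.65-fold lower after PLG+EACA (limma adjusted p = 1.29e-06), 1.44-fold lower after PLG+EACA+RNase (adjusted p = 1.58e-05) and 1.15-fold higher with RNase than without (adjusted p = 0.0356, or 0.0727 under median-of-ratios scaling). That call was lost without PLG+EACA replicate 1, 2 or 4 or PLG+EACA+RNase replicate 1, 2 or 3 (adjusted p = 0.0588 to 0.0994). Ern1, the IRE1 gene, was 13.4 ± 0.132 (SD, n = 4) in untreated cells, 7.65 ± 1.33 after PLG+EACA and 9.46 ± 1.42 after PLG+EACA+RNase, 1.72-fold and 1.4-fold lower (limma adjusted p = 1.07e-04 and 0.00321). Atf6 went from 11.3 ± 0.245 to 8.12 ± 0.777 and 9.51 ± 0.999, 1.38-fold and 1.19-fold lower, of which the second ended under median-of-ratios scaling. Without PLG+EACA+RNase replicate 4, Ern1 and Atf6 were higher with RNase than without (adjusted p = 0.028 and 0.0109), against 0.0988 and 0.0751 in the full set, and Ern1 also passed without PLG+EACA replicate 3 (0.0393).

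Atf4 and Atf5, factors that the integrated stress response controls mainly at translation, parted from each other. Atf5 was at 123, 123, 131 and 125 in untreated cells, 84.1, 83.5, 79.95 and 60.5 after PLG+EACA and 65.3, 63.9, 60.1 and 66.7 after PLG+EACA+RNase. The treated values did not reach the untreated ones, and PLG+EACA replicate 4 lay among the RNase values. Atf5 was 1.64-fold lower after PLG+EACA (limma adjusted p = 2.38e-05) and 1.96-fold lower after PLG+EACA+RNase (adjusted p = 2.85e-06). The difference between the treatments missed the threshold as deposited (log2 fold change -0.25, adjusted p = 0.0624) and passed without PLG+EACA replicate 4 (-0.37, adjusted p = 0.00506) and under median-of-ratios scaling (adjusted p = 0.0185). Exons of Atf5 and Nup62, on opposite strands, share 82 bases. Atf4 ranged over 148 to 152, 107 to 154 and 134 to 148 and passed no test over the 12 libraries, with the low end at PLG+EACA replicate 4. Its PLG+EACA+RNase values were all below the untreated ones (limma adjusted p = 0.236), which passed with only those groups in the fit (0.0246). Cebpg, a partner of ATF4, was 1.24-fold and 1.27-fold lower as deposited (14.6 ± 0.613, 11.71 ± 1.53 and 11.4 ± 1.05), calls that ended under median-of-ratios scaling. Nupr1, a small stress-induced chromatin protein, overlapped between the groups (10.98 to 12.5, 6.43 to 11.3 and 8.42 to 11.62) and did not pass over the 12 libraries without a block (limma adjusted p = 0.104, 0.329 and 0.611), while with the replicate number as a block it was lower after PLG+EACA (-0.29 on the log2 scale, adjusted p = 0.044).

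The 4 feedback targets went both ways. Trib3 and Sesn2 were lower in both treatments, Ppp1r15a was higher in both, and Chac1 was higher after PLG+EACA. Ppp1r15a encodes GADD34, the phosphatase subunit that ends eIF2alpha phosphorylation, and stood at 34.8, 32.00, 34.3 and 35.1 FPKM in untreated cells, 54.7, 56.4, 57.6 and 34.2 after PLG+EACA and 76.6, 85.9, 74.7 and 59.6 after PLG+EACA+RNase. All RNase values were above all others, while PLG+EACA replicate 4 lay within the untreated range. It was 1.45-fold higher after PLG+EACA (limma log2 fold change 0.54, SE 0.15, adjusted p = 0.00764) and 2.15-fold higher after PLG+EACA+RNase (1.10, SE 0.15, adjusted p = 6.03e-05), with 96.3% of genes tested at or below the latter change. With RNase it was 1.48-fold above PLG+EACA (adjusted p = 0.0255), and without PLG+EACA replicate 4 that log2 fold change went from 0.56 to 0.38 (adjusted p = 0.03). The call was lost without PLG+EACA+RNase replicate 1, 2 or 3 (adjusted p = 0.0576, 0.0785 and 0.0668).

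Trib3, a pseudokinase that CHOP induces and that restrains ATF4, was at 51.4, 54.8, 53.7 and 53.3 in untreated cells, 31.3, 36.2, 31.6 and 17.3 after PLG+EACA and 29.8, 27.99, 24.6 and 23.9 after PLG+EACA+RNase. PLG+EACA replicate 4 was the lowest of the 12 libraries, and no treated value came near an untreated one. Trib3 was 1.88-fold and 1.995-fold lower (limma adjusted p = 6.49e-04 and 3.76e-04). Between the treatments it was -0.084 on the log2 scale (adjusted p = 0.764), and -0.31 without PLG+EACA replicate 4 (adjusted p = 0.03). Sesn2, a leucine sensor and inhibitor of mTORC1, had values of 31.7, 32.1, 34.4 and 30.9, 23.4, 26.5, 25.6 and 18.5 and 25.9, 23.6, 22.1 and 23.2. It was 1.38-fold and 1.35-fold lower as deposited, and under median-of-ratios scaling the first missed the threshold (adjusted p = 0.0694) and the second passed (0.0465).

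Chac1, which breaks down glutathione and is among the most sensitive ATF4 and CHOP targets, was above rather than below the untreated level. It ranged over 8.69 to 9.67 in untreated cells, 8.23 to 13.4 after PLG+EACA and 10.3 to 12.2 after PLG+EACA+RNase. The PLG+EACA group overlapped the untreated one through replicate 4 alone, and the RNase group did not overlap it. After PLG+EACA it was 1.28-fold higher (limma adjusted p = 0.0245), and 0.51 on the log2 scale without replicate 4 (adjusted p = 2.71e-05) against 0.35 with it. The call ended without untreated replicate 2 or 4 or PLG+EACA replicate 1, 2 or 3 (adjusted p up to 0.0728). After PLG+EACA+RNase it missed the threshold as deposited (log2 fold change 0.29, adjusted p = 0.0582) and passed under median-of-ratios scaling (adjusted p = 0.00179).

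In the amino acid group, the cystine transporter gene Slc7a11 rose, the leucine importer gene Slc7a5 fell, and the genes of serine synthesis were lower as deposited. After PLG+EACA 2 of the 8 were higher and 4 lower, and after PLG+EACA+RNase 2 were higher and 6 lower. Under median-of-ratios scaling these counts were 4 and 1, and 2 and 2. Between the treatments none was higher and 2 were lower with RNase, with either scaling. The shares of all genes tested, higher and lower, were 14.9% and 53.4%, 16.0% and 48.4%, and 12.1% and 8.73% as deposited. Under median-of-ratios scaling they were 27.3% and 26.4%, 28.4% and 26.4%, and 10.6% and 11.4%. Slc7a11, the cystine transporter that feeds glutathione synthesis and answers both to ATF4 and to NRF2, was at 136, 128, 116 and 139.6 FPKM in untreated cells, 215, 218, 197 and 183 after PLG+EACA and 216, 214, 185 and 189 after PLG+EACA+RNase. All treated values were above the untreated ones, and the treatments overlapped. It was 1.56-fold and 1.54-fold higher (limma log2 fold changes 0.64 and 0.63, SE 0.077 each, adjusted p = 1.72e-05 and 2.30e-05).

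The Slc7a11 promoter is shown for its pair of CARE cores, facing each other 11 bases apart. Matches to TGATGNAA were found for 5 of the 34 genes with a window, and the other 4 were Asns, Chac1, Herpud1 and Nupr1. The window is chr3:50443614-50443863 on the minus strand, with the fixed letters in capitals.
Slc7a11: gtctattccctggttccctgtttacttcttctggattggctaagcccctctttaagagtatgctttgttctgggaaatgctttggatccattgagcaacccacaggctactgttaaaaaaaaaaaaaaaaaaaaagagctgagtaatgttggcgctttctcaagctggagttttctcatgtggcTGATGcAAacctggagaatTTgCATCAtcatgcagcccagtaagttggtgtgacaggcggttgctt
Of the genes of the other promoters, Chac1 rose after PLG+EACA, a call that ended on leaving out single libraries, and Herpud1 fell in both treatments. Asns was lower after PLG+EACA+RNase as deposited and higher after PLG+EACA under median-of-ratios scaling. Nupr1 passed against untreated cells with neither scaling. These genes too did not all share a direction. Read in the direction of the motif, the cores of these promoters were as follows.
Asns: TGATGaAA
Chac1: TGATGcAA
Herpud1: TGATGcAA
Nupr1: TGATGcAA

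Slc3a2, the heavy chain that pairs with either SLC7A11 or SLC7A5 at the surface, was at 268, 261, 258 and 271 in untreated cells, 344, 349, 354 and 303 after PLG+EACA and 332, 294, 298 and 326 after PLG+EACA+RNase. Every treated value was above every untreated one. It was 1.27-fold and 1.18-fold higher (limma adjusted p = 2.06e-04 and 0.00307). Its partner Slc7a5, the importer of leucine and other large neutral amino acids, went the other way. It was at 38.9, 44.6, 40.1 and 36.4 in untreated cells, 23.8, 26.5, 23.9 and 18.7 after PLG+EACA and 22.6, 20.4, 17.4 and 19.8 after PLG+EACA+RNase. All treated values were below the untreated ones, with the fourth library lowest in PLG+EACA. Slc7a5 was 1.72-fold and 1.97-fold lower (limma adjusted p = 4.47e-05 and 8.73e-06), and its difference between the treatments passed only without PLG+EACA replicate 4 (-0.30, adjusted p = 0.0481, against 0.192 with it) among the fits that left out 1 library.

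Asns and Mthfd2 were the genes of the 38 that were lower with RNase than without. Asns, asparagine synthetase, was at 44.5, 45.5, 41.2 and 41.99 in untreated cells, 46.6, 50.4, 45.6 and 39.8 after PLG+EACA and 43.02, 35.1, 36.02 and 36.97 after PLG+EACA+RNase. The groups overlapped through PLG+EACA replicate 4 and RNase replicate 1. It was 1.2-fold lower with RNase than without (limma adjusted p = 0.0319), a call that ended without PLG+EACA replicate 1, 2 or 3 or PLG+EACA+RNase replicate 2 or 3 (adjusted p up to 0.0929) and held under median-of-ratios scaling (adjusted p = 0.0134). Mthfd2, a mitochondrial enzyme of one-carbon metabolism, was at 58.5, 62.03, 58.5 and 62.5, 66.01, 65.6, 62.4 and 61.4 and 54.4, 49.2, 50.1 and 57.8 in the same order. Its RNase values lay below all others. It was 1.21-fold lower with RNase than without (adjusted p = 0.00906). Against untreated cells Asns and Mthfd2 were lower after PLG+EACA+RNase as deposited (adjusted p = 0.0407 and 0.00817), directions that turned under median-of-ratios scaling, and with that scaling both were higher after PLG+EACA. The call of Asns was also lost without untreated replicate 1, 2 or 4 or PLG+EACA+RNase replicate 2, 3 or 4 (adjusted p up to 0.106).

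The serine pathway was lower as deposited. Shmt2, which passes a carbon from serine to folate in mitochondria, went from 20.9 ± 0.722 (SD, n = 4) to 15.8 ± 2.57 and 13.5 ± 1.63, 1.32-fold and 1.53-fold lower, of which the second also passed under median-of-ratios scaling (limma adjusted p = 0.00586). Phgdh, the first enzyme of serine synthesis, went from 47.6 ± 3.95 to 37.5 ± 7.68 and 33.95 ± 4.97, and its call after PLG+EACA ended without untreated replicate 2 or 4 or PLG+EACA replicate 3 or 4 (adjusted p up to 0.105). Psat1, the second enzyme, went from 12.3 ± 0.583 to 10.6 ± 0.525 and 10.04 ± 0.607. The calls of Phgdh and Psat1 all ended under median-of-ratios scaling, where the change of Psat1 after PLG+EACA turned direction.

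**Figure D4:**
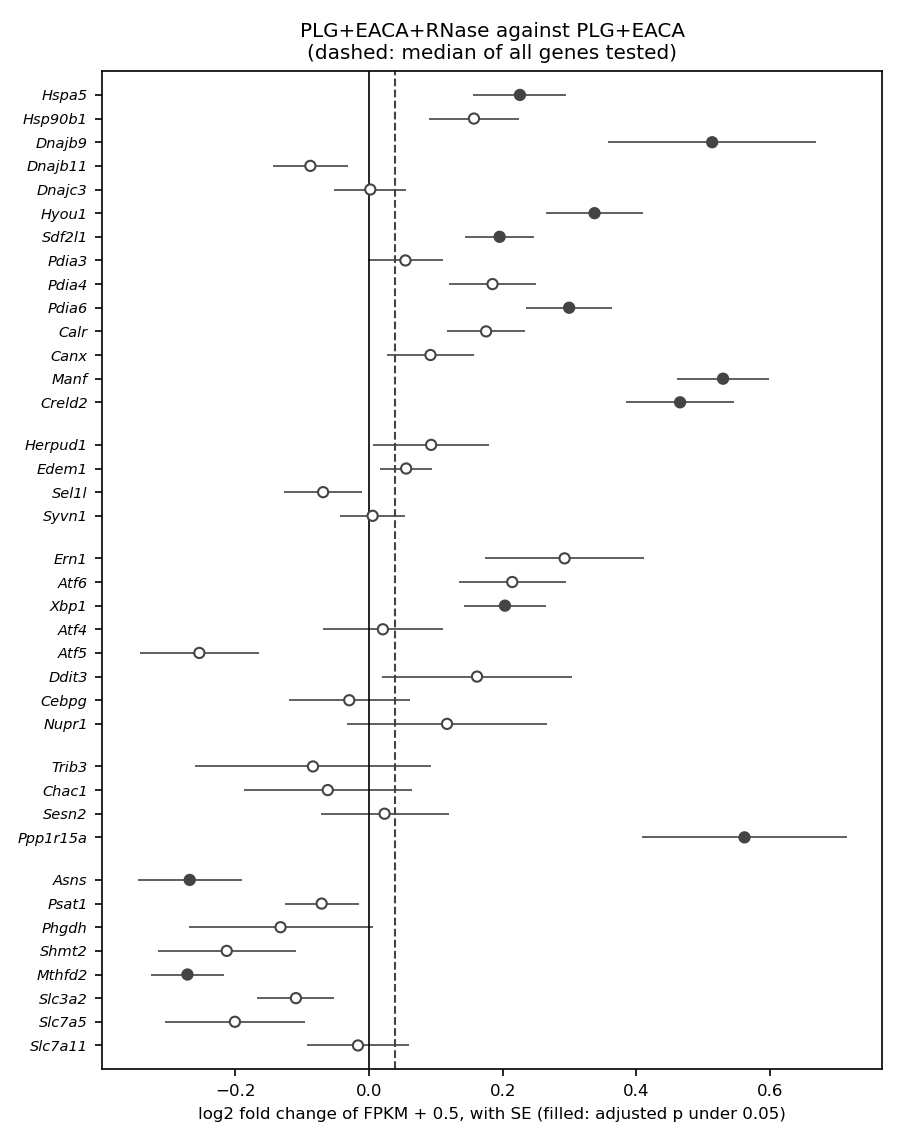
Log2 fold change of FPKM + 0.5 (x axis, with its SE) of the 38 genes (y axis, by role) in PLG+EACA+RNase against PLG+EACA, 4 libraries each. Filled points passed the test, and the dashed line is the median of all genes tested (0.039). The filled points among the chaperones lie to the right, with Dnajb9, Manf and Creld2 the farthest, and Asns and Mthfd2 lie to the left.

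A wider list of 95 genes of the same pathways, of which 85 were tested, was counted in the same way. After PLG+EACA 9 were higher and 57 lower, and after PLG+EACA+RNase 9 were higher and 48 lower, or 22 and 19, and 25 and 19, under median-of-ratios scaling. Between the treatments 15 were higher with RNase and 5 lower, or 14 and 10 with that scaling. Over all genes tested the shares higher and lower were 14.9% and 53.4%, 16.0% and 48.4%, and 12.1% and 8.73% as deposited, and 27.3% and 26.4%, 28.4% and 26.4%, and 10.6% and 11.4% with that scaling. The median log2 fold changes of the wider list, -0.28, -0.21 and 0.031, were near the -0.26, -0.20 and 0.039 of all genes. Of the 13 kinases, subunits and phosphatase genes around eIF2, 1 was higher and 7 lower after PLG+EACA, and 1 higher and 9 lower after PLG+EACA+RNase, or 5 and 5, and 4 and 4, under median-of-ratios scaling. The higher one in both as deposited was Eif2ak2, which encodes PKR, the kinase that foreign RNA activates, at 33.5, 30.1, 30.8 and 37.4 FPKM against 13.7, 14.4, 11.4 and 11.70 in untreated cells, and 19.7, 15.3, 18.4 and 26.8 after PLG+EACA+RNase. PKR mRNA rose 2.51-fold after PLG+EACA (limma adjusted p = 7.93e-06), a change named after its values were seen. PKR mRNA was 1.65-fold lower with RNase than without (limma adjusted p = 0.00856), the opposite direction to Manf and Creld2 in that comparison. Between the treatments 2 of these 13 were higher with RNase, Eif2ak3 (PERK, 2.004 to 2.95 FPKM, limma adjusted p = 0.0127) and Eif2ak4, both named after their values were seen. The eIF2B subunit genes Eif2b1 and Eif2b2, of the exchange factor that phosphorylated eIF2 blocks, fell from 8.59 to 5.2 and 4.72 and from 30.2 to 20.9 and 21.2 (limma adjusted p at most 5.95e-06), also under median-of-ratios scaling.

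Among the other stress factors, Atf3, a repressor that ATF4 and Toll-like receptor signals induce, rose from 254 ± 6.87 (SD, n = 4) to 322 ± 19.8 and 368 ± 11.9 (1.26-fold and 1.45-fold, limma adjusted p = 6.25e-05 and 2.44e-06) and was higher with RNase than without (adjusted p = 0.0182). Of 23 further folding and translocation genes, 1 was higher and 18 lower after PLG+EACA, 1 and 13 after PLG+EACA+RNase, and 6 higher and none lower between the treatments. Under median-of-ratios scaling these counts were 3 and 4, 6 and 1, and 4 and 1. Of all genes tested, 53.4% and 48.4% were lower in the treatments as deposited, and 26.4% in each with median-of-ratios scaling. P4hb, the founding disulphide isomerase, was 1.46-fold lower after PLG+EACA (from 156 to 106), and Uggt1, which checks glycoprotein folding, was 1.33-fold lower. Txndc11 and Srprb had the smallest p between the treatments (higher with RNase, 1.27-fold and 1.19-fold, limma adjusted p = 0.0181 and 0.02). Of 13 tested genes of ER-associated degradation beyond the first 4, 1 was higher and 10 lower after PLG+EACA, and 2 and 6 after PLG+EACA+RNase, a balance that turned to 4 and 1, and 6 and 2, under median-of-ratios scaling, with Derl1 1.4-fold and 1.31-fold lower. Ube2j2 and Edem2 were higher with RNase than without (1.18-fold and 1.23-fold).

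The 12 aminoacyl-tRNA synthetase genes, many of them ATF4 targets, gave 1 higher and 8 lower after PLG+EACA and none higher and 9 lower after PLG+EACA+RNase, or 1 and 4, and 2 and 5, under median-of-ratios scaling. The shares of all genes higher and lower were 14.9% and 53.4%, and 16.0% and 48.4%, as deposited. With that scaling they were 27.3% and 26.4%, and 28.4% and 26.4%. Yars and Iars were 1.55-fold and 1.43-fold lower after PLG+EACA. Wars, which interferon also induces, was the higher one (19.6 to 28.5, limma adjusted p = 8.22e-05) and fell to 22.01 with RNase (adjusted p = 0.0104 against PLG+EACA). Of 14 tested further ATF4 targets, 3 were higher and 7 lower after PLG+EACA, 3 and 5 after PLG+EACA+RNase, and 3 and 1 between the treatments. Under median-of-ratios scaling the balance against untreated cells turned to 5 and 3, and 5 and 4, and between the treatments it was 4 and 1. Between the treatments 12.1% of all genes tested were higher and 8.73% lower, or 10.6% and 11.4% with that scaling. Slc1a5, a glutamine transporter, fell from 31.2 ± 0.414 (SD, n = 4) to 16.8 ± 1.4 and 18.7 ± 0.682 (limma adjusted p = 1.99e-07 and 7.74e-07). Gdf15, a secreted stress hormone, was at 15.7, 15.7, 13.9 and 16.9 in untreated cells, 52.01, 78.4, 53.3 and 27.6 after PLG+EACA and 134, 137, 107 and 73.5 after PLG+EACA+RNase. All 8 treated values lay above the untreated ones, and PLG+EACA+RNase replicate 4 lay below PLG+EACA replicate 2. Gdf15 rose 3.12-fold and 6.88-fold (limma adjusted p = 1.90e-04 and 3.98e-06) and was 2.2-fold higher with RNase than without (adjusted p = 0.0155).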

How the data were processed

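The members and gene lists were chosen with earlier results of these data known. The deposited values were FPKM, 1 column for each of 12 total RNA libraries. According to the submitters' processing notes the tools were STAR 2.7.11a, featureCounts 2.0.6, cutadapt 4.5, DESeq2 1.40.2 and FastQC 0.12.1, and GRCm38.p6 was the build, none with a stated role; per the labels the kit was directional, while the use of strand in counting is not given in the sources used here. Deposited FPKM times gene length in kilobases summed to 1000000 in each library, so libraries were not scaled to each other. Depth came from the smallest steps between low FPKM values (12.9 to 22.7 in units of 1000000 reads), and 100% of values precise enough to check were within 0.1 of a whole number of reads. Each of the 3 groups had 4 libraries.

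Genes with FPKM of at least 1 in at least 4 libraries were tested on log2(FPKM + 0.5) with limma 3.58.1 in R 4.3.3 (1 mean per group, all 12 libraries, eBayes with trend), two-sided, with Benjamini-Hochberg adjustment over all genes tested and a threshold of 0.05. The procedure was tested on simulated data. All 38 genes are named; values of every library are given for up to 3 of smallest p in each role and for those called between the treatments, other members by mean or range. From the wider list, up to 2 genes of smallest p per role and comparison were eligible, besides Eif2ak3, Eif2ak4, Eif2ak2 after PLG+EACA and Wars after PLG+EACA, named after their values were seen. Alternatives were other scaling, pseudocounts, filters, a replicate block, pairwise fits, robust variances and leaving out libraries. Libraries of a group differed by more than counting noise (chi-square per degree of freedom 3.21 to 35.0). The labels give no batch and do not say whether replicate numbers pair the samples, and correlations between same-numbered libraries did not settle it.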

Additional observations from a re-analysis of the deposited data

Results flagged for a closer look

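Among 114 sets of 4 values (38 genes in 3 groups), 7 had a lowest or highest library whose gap to the nearest of the others exceeded Dixon's 95% critical share of the group's range. Chance flags about 1 in 20 such sets. In untreated replicate 2, Dnajb9 was at 10.2 FPKM against 11.8 to 12.1 in the other libraries, and Manf at 8.54 against 9.78 to 10. Herpud1 was high at 23.6 in PLG+EACA replicate 2, against 19.0 to 19.6, and at 26.2 in PLG+EACA+RNase replicate 1, against 20.01 to 20.7. In PLG+EACA+RNase replicate 1, Atf4 was at 147.8 against 133.8 to 134.6, and in replicate 4 of that group Xbp1 was at 23.3 against 26.4 to 27.0. Ppp1r15a was at 34.2 in PLG+EACA replicate 4, against 54.7 to 57.6 in the other libraries of its group and 32.00 to 35.1 in untreated cells.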

How the results depend on the processing

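Scaling moved the counts against untreated cells by more than 1.5 times, and other choices changed single calls there. With no filter on low values Hsp90b1, Chac1 and Phgdh lost their calls after PLG+EACA and Asns its call after PLG+EACA+RNase. With only the groups compared in the fit Dnajb9 and Canx gained calls after PLG+EACA, and Atf4 and Chac1 after PLG+EACA+RNase. Under median-of-ratios scaling, 13 of the 38 genes were higher and 10 lower after PLG+EACA (5 and 21 as deposited) and 14 and 10 after PLG+EACA+RNase (7 and 20). Among genes that passed with either scaling, it turned the direction against untreated cells for the following, on the log2 scale. In PLG+EACA they were Hsp90b1 (0.11), Sdf2l1 (0.012), Pdia3 (0.018), Pdia6 (0.21), Creld2 (0.19), Sel1l (0.015) and Psat1 (0.058). In PLG+EACA+RNase they were Hsp90b1 (0.22), Sdf2l1 (0.16), Pdia3 (0.029), Calr (0.0069), Canx (0.17), Asns (0.033) and Mthfd2 (0.039). Turns of genes that passed with neither scaling are not listed. Calls that held under every alternative run were 14 of 26, 17 of 27 and, between the treatments, 5 of 11. Between the treatments, 9 higher and 2 lower became 5 and 1 with no filter on low values, where more genes are tested, 4 and 1 with only the 2 groups in the fit, which has fewer samples, and, in a check added after seeing the data, 14 and 7 without replicate 4 of both treatments; the cause of the last was not tested. Leaving out 1 library gave 4 to 5 higher and 19 to 21 lower genes after PLG+EACA, 7 to 8 and 19 to 20 after PLG+EACA+RNase, and 4 to 14 and 1 to 6 between the treatments. For alternatives other than the scaling, shares of all genes are not given beside these counts. Pseudocounts of 0.1 and 1 and robust variances changed no call.

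With the replicate number as a block, Hsp90b1 lost and Nupr1 gained a call after PLG+EACA, Chac1 gained one after PLG+EACA+RNase and Calr one between the treatments, and the counts were 5 higher and 21 lower after PLG+EACA, 8 and 20 after PLG+EACA+RNase, and 10 and 2 between the treatments. Same-numbered libraries had correlations of their deviations from -0.176 to 0.332 over 12 pairs, and a library correlated best with its own number in 8 of 24 cases. The lowest read number behind a value was 211, for Chac1, a counting error of 6.88%, so differences of that size in the least covered genes were not detectable at this depth in a single library.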
